A study of Mus musculus with 15 samples.

Results

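The lymphoid progenitor and B-lineage genes Ly6d, Blnk, Dntt, Vpreb1, Jchain, Ebf1, Pax5, Rag1, Cd79a and Cd79b were followed through dendritic cell (DC) development in mouse bone marrow, 10 of the 19938 genes measured. The list was set by symbol. A gene was read from the probe sets annotated to its symbol alone, and each of the 10 genes had 1 such probe set, so no choice between probe sets was needed. The cells were Zbtb46-GFP+ cKit-intermediate cells and CDPs (common DC progenitors), sorted from Id2 KO Zbtb46-GFP chimeric mice, Batf3 KO Zbtb46-GFP mice and Zbtb46-GFP chimeric mice with neither gene removed (WT). All 3 genotypes carried the Zbtb46-GFP reporter, in which GFP marks cells that have turned on the DC factor Zbtb46. No age or strain was given in the labels. The chimeric origin was shared by Id2 KO and WT cells and not by Batf3 KO cells, so that host type and Batf3 genotype cannot be told apart, and the share of host cells left in the chimeras was not stated.

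B cells arise from lymphoid progenitors in which E proteins, a family of basic helix-loop-helix factors that bind the E-box, switch on Ebf1 and then Pax5, the factors that set and hold B cell identity. Their targets include the surrogate light chain Vpreb1, the receptor signalling chains Cd79a and Cd79b and the adaptor Blnk, while Rag1 and Dntt act in the assembly of receptor genes. Id2 is an inhibitor that binds E proteins and keeps them off DNA. Plasmacytoid DCs (pDCs), which depend on the E protein Tcf4, share expression of several lymphoid genes, while the cDC1 subset of classical DCs arises under Id2 and Batf3.

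Signal was read as log2 intensity on Affymetrix arrays: 3 arrays for each Zbtb46-GFP+ group and 2 for each CDP group. Replicate 1 of each Zbtb46-GFP+ group stood apart, with median intensities between 23.8 and 24.1, while the other 12 had medians between 100.8 and 112.1. Pairs of these 3 replicate 1 arrays held identical values at 59.4% to 71.7% of probe sets. Tests therefore rest on the remaining 12 arrays, 2 per group. A fit of all 15 arrays with no term for the 3 called 0 or 1 of the 19938 genes in each comparison, and none of the results on these 10 genes described as called below. The 12 arrays were also put into 2 sets, 1 with the array of each group that had the higher 75th percentile of signal, 1 with the other. Differences within each set are given beside the main values, which are their mean, so they are not separate evidence. The sets, and fits with a block for them, come from the same intensities, and the labels name no such sets. A gene was called at an adjusted p under 0.05 (limma, Benjamini-Hochberg over all genes). Nothing in the labels says that arrays of a group came from separate animals, so p-values measure the spread between these arrays, which may be technical.

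The labels were checked on the targeted genes. Id2 averaged 8.61 ± 0.30 in Id2 KO Zbtb46-GFP+ cells, 11.35 ± 0.30 in Batf3 KO and 11.74 ± 0.37 in WT (log2 signal, SD, n = 2 each). Batf3 averaged 8.29 ± 0.11, 7.10 ± 0.31 and 9.92 ± 0.10 in the same 3 groups. In CDPs Id2 averaged 6.52 ± 0.79 in Id2 KO, 7.79 ± 0.05 in Batf3 KO and 7.54 ± 0.19 in WT, and its difference of -1.03 between Id2 KO and WT was not called (adjusted p = 1). Batf3 averaged 7.05 ± 0.26, 7.11 ± 0.21 and 7.14 ± 0.02 in those CDPs, so that these 2 genes check the genotype labels in Zbtb46-GFP+ cells and not in CDPs. Id2 signal was also higher in Id2 KO Zbtb46-GFP+ cells than in Id2 KO CDPs, by 2.09 ± 0.32 (adjusted p = 0.00259). The labels do not say whether these probe sets lie inside the deleted parts. Zbtb46 itself averaged 6.02 ± 0.09 in Id2 KO, 6.0 ± 0.01 in Batf3 KO and 7.08 ± 0.14 in WT Zbtb46-GFP+ cells, against 5.82 ± 0.07, 5.85 ± 0.24 and 6.0 ± 0.09 in the matching CDPs. The Zbtb46 step from CDPs was called in WT (1.08 ± 0.14) but not in Id2 KO (0.20 ± 0.14) or Batf3 KO (0.15 ± 0.14). The class II genes Cd74 and H2-Aa were higher in Zbtb46-GFP+ cells than in CDPs in all 3 genotypes. On the log2 scale the steps were 7.17 and 6.48 in WT, 6.67 and 6.43 in Id2 KO, and 6.94 and 7.03 in Batf3 KO. Xist, the RNA that coats the inactive X chromosome, was at 5.06 to 5.71 in both knockouts and at 11.93 to 12.42 in WT on the 12 arrays, so that on these arrays sex as read from Xist and knockout genotype cannot be told apart. On the replicate 1 arrays, which are on another scale, it was at 3.66 in Id2 KO, 11.02 in Batf3 KO and 10.53 in WT, so that there Batf3 KO did not go with low Xist. All 10 genes lie on autosomes.

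Of the 10 genes, 5 were called in at least 1 comparison, Ly6d, Blnk, Jchain, Dntt and Vpreb1, and 5 in none, Ebf1, Pax5, Rag1, Cd79a and Cd79b. Of all 19938 genes, 13.9% were called in at least 1 of the 10 comparisons. Ly6d, Blnk and Jchain were highest in Id2 KO Zbtb46-GFP+ cells. Dntt was lower in Zbtb46-GFP+ cells than in CDPs in every genotype, and Vpreb1 in Batf3 KO and WT. These are bulk samples, in which fewer cells of a type and less RNA per cell cannot be told apart. Jchain, Ebf1, Rag1 and Cd79a had mean signals in the lowest 25% of all genes, and the other 6 lay above that level.

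**Figure D1:**
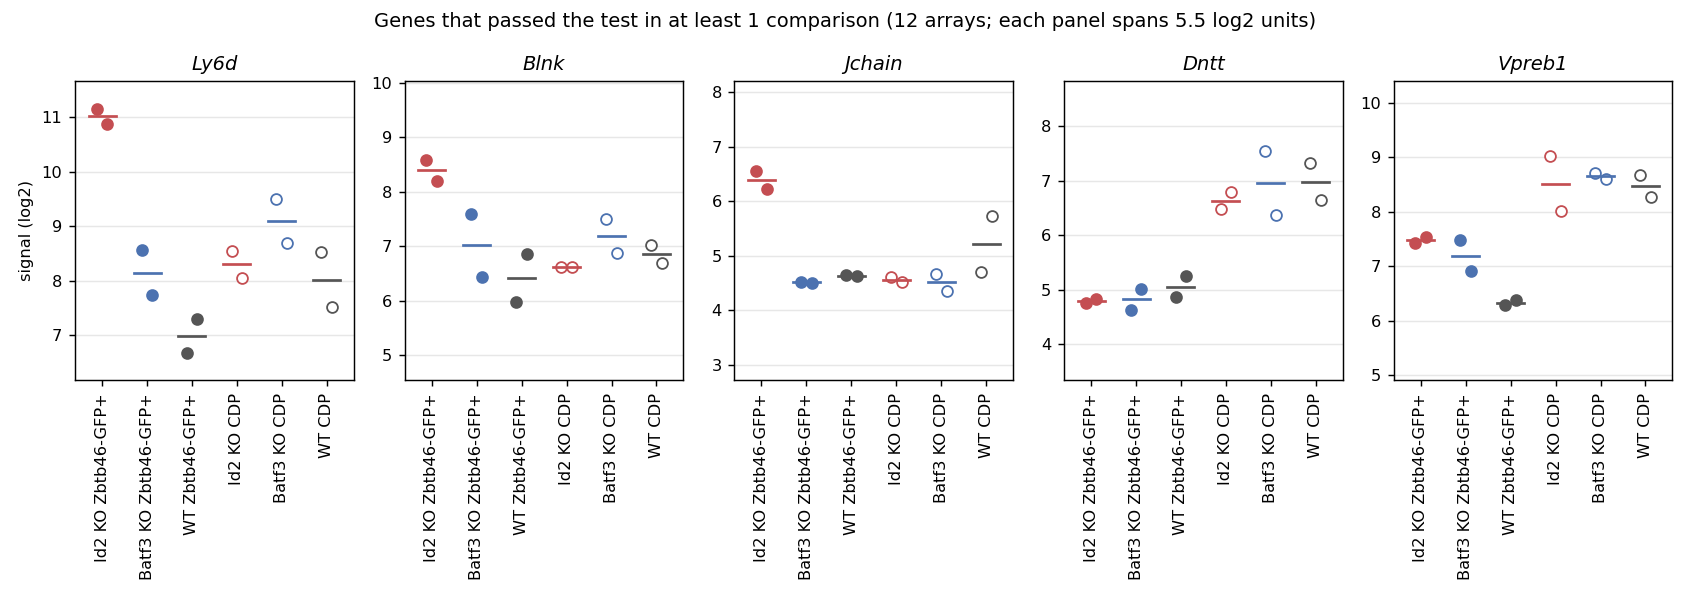
Log2 signal (y axis) of the 5 genes called in at least 1 comparison, by group (x axis). Points are arrays, filled for Zbtb46-GFP+ cells and open for CDPs, bars are group means, and colours are genotypes (red Id2 KO, blue Batf3 KO, grey WT). Both Id2 KO Zbtb46-GFP+ arrays are the highest of the 12 for Ly6d, Blnk and Jchain, while the 6 Zbtb46-GFP+ arrays all lie below the 6 CDP arrays for Dntt and Vpreb1.

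Ly6d, a small surface protein that marks lymphoid progenitors biased to the B lineage and is also found on pDC progenitors, had the widest range of the 10 genes, 4.48 on the log2 scale over 12 arrays. Its log2 signal was 11.16 and 10.88 in Id2 KO Zbtb46-GFP+ cells, 8.56 and 7.73 in Batf3 KO Zbtb46-GFP+ cells and 6.68 and 7.30 in WT Zbtb46-GFP+ cells. In CDPs it was 8.55 and 8.05 in Id2 KO, 9.51 and 8.69 in Batf3 KO, and 8.53 and 7.51 in WT. The 2 Id2 KO Zbtb46-GFP+ arrays stood above all others and the 2 WT Zbtb46-GFP+ arrays below all others, while the groups between them partly overlapped. By mean, Id2 KO Zbtb46-GFP+ cells (11.02) were followed by Batf3 KO CDPs (9.10), Id2 KO CDPs (8.30), Batf3 KO Zbtb46-GFP+ cells (8.14), WT CDPs (8.02) and WT Zbtb46-GFP+ cells (6.99), and the groups from Id2 KO CDPs to WT CDPs in this order overlapped with their neighbours. The gene lies on chromosome 15 between Lynx1 and Ly6g6g, in a cluster of related Ly6 genes.

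Ly6d was higher in Id2 KO than in WT Zbtb46-GFP+ cells by 4.03 ± 0.40 on the log2 scale (SE), a 16.3-fold difference (adjusted p = 0.000385), and by 3.86 and 4.19 within the 2 sets of arrays. This call held when any 1 of the 12 arrays was left out. Ly6d was also higher in Id2 KO than in Batf3 KO Zbtb46-GFP+ cells, by 2.87 ± 0.40 (adjusted p = 0.00897). That call was lost without Id2 KO replicate 2 (adjusted p = 0.12), Id2 KO replicate 3 (0.055) or Batf3 KO replicate 3 (0.0841), and when the 3 arrays that stood apart were added with their own term (0.274). The difference between Batf3 KO and WT Zbtb46-GFP+ cells was 1.15 ± 0.40 and was not called (adjusted p = 0.661), though it was with a block for the sets of arrays (0.00305), where the within-set values were 1.26 and 1.05.

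Along the step to the Zbtb46-GFP+ stage, Ly6d had steps of opposite sign. It was higher in Id2 KO Zbtb46-GFP+ cells than in Id2 KO CDPs by 2.72 ± 0.40, or 6.57-fold (adjusted p = 0.00191; 0.0779 with those 3 arrays and their term added). The step was -0.96 ± 0.40 in Batf3 KO (adjusted p = 0.218) and -1.03 ± 0.40 in WT (0.141), neither called, though both were with a block for the sets (0.00116 and 0.000514), and the WT step was without WT CDP replicate 2 (-1.54, adjusted p = 0.0496). The test of the difference between the Id2 KO and WT steps gave 3.74 ± 0.56 (adjusted p = 0.0197). That call was lost without Id2 KO Zbtb46-GFP+ replicate 2 (adjusted p = 0.0984) or 3 (0.0801), Id2 KO CDP replicate 2 (0.0727) or WT CDP replicate 1 (0.0655). In CDPs, Ly6d differed by 0.28 between Id2 KO and WT (95% interval -0.59 to 1.15) and by 1.08 between Batf3 KO and WT (0.21 to 1.96, adjusted p = 1, or 0.0241 with a block for the sets).

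Blnk, the adaptor that links Syk to downstream enzymes after pre-B and B cell receptor signals, lies on chromosome 19 beside Dntt. Its promoter window is shown because Blnk and its neighbour Dntt differed in direction in the same cells. Windows here run from 250 bases before to 50 bases after the RefSeq start (GRCm38.p6), 5′ to 3′ on the gene's strand, and capitals mark every E-box, CANNTG. The Blnk window is chr19:40994172-40994471, minus strand, and the Dntt window is chr19:41029025-41029324, plus strand.
Blnk: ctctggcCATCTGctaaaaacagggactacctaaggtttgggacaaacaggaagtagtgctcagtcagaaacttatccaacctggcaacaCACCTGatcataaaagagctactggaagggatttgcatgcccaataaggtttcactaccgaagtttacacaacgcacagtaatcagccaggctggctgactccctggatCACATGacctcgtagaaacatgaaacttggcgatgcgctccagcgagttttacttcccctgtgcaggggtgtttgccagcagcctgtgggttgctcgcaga
Dntt: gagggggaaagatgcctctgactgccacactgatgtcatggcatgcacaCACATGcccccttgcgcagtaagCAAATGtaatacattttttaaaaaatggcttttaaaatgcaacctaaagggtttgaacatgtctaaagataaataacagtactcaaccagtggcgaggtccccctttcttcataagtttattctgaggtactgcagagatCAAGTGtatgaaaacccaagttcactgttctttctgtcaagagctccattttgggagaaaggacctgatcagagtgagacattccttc
Each window held 3 E-boxes. The Blnk window held 1 match to CAGGTG, a form bound by E proteins, read as CACCTG on this strand, and the Dntt window held none. Over all 32851 windows of the table, 72.3% held CANNTG and 20.2% held CAGGTG on either strand.

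Blnk signal was 8.59 and 8.20 in Id2 KO Zbtb46-GFP+ cells, 7.60 and 6.44 in Batf3 KO and 5.98 and 6.85 in WT Zbtb46-GFP+ cells (log2). In CDPs it was 6.62 and 6.61 in Id2 KO, 7.50 and 6.87 in Batf3 KO, and 7.02 and 6.69 in WT. The Id2 KO Zbtb46-GFP+ arrays were again the highest, and the other arrays lay between 5.98 and 7.60, where groups partly overlapped. Blnk was higher in Id2 KO than in WT Zbtb46-GFP+ cells by 1.98 ± 0.37, or 3.95-fold (adjusted p = 0.0213), with 1.74 and 2.23 within the sets of arrays. The call was lost without Id2 KO replicate 2 (adjusted p = 0.216) or 3 (0.0935) or WT replicate 2 (0.131).

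Blnk was higher in Id2 KO Zbtb46-GFP+ cells than in Id2 KO CDPs by 1.78 ± 0.37 (3.43-fold, adjusted p = 0.0153). Leaving out any of the 4 Id2 KO arrays ended this call (adjusted p of 0.137 and 0.0556 without Zbtb46-GFP+ replicates 2 and 3, and of 0.0783 and 0.0617 without CDP replicates 1 and 2). The step was -0.16 in Batf3 KO (95% interval -0.98 to 0.66) and -0.44 in WT (-1.26 to 0.38). The difference between the Id2 KO and WT steps, 2.22 ± 0.53, was not called (adjusted p = 0.165), nor was the difference between Id2 KO and Batf3 KO Zbtb46-GFP+ cells, 1.38 ± 0.37 (0.233). With a block for the sets of arrays both were called (0.003 and 0.00503).

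Jchain, the joining chain of polymeric IgM and IgA, is best known from plasma cells and is also expressed in pDCs. Its window is shown because Jchain was the third gene that was highest without Id2. It lies at chr5:88527848-88528147, minus strand.
Jchain: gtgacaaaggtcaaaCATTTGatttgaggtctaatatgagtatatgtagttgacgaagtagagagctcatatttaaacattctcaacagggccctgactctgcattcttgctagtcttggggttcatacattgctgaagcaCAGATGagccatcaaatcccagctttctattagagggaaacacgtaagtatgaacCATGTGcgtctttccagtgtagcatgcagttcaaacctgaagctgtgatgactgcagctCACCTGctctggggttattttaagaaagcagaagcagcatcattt
It held 4 E-boxes, of which 1, just after the start site, was the CAGGTG form read as CACCTG.

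Jchain signal was 6.56 and 6.23 in Id2 KO Zbtb46-GFP+ cells, 4.52 and 4.50 in Batf3 KO and 4.65 and 4.62 in WT Zbtb46-GFP+ cells (log2). In CDPs it was 4.61 and 4.51 in Id2 KO, 4.66 and 4.36 in Batf3 KO, and 4.70 and 5.73 in WT. Apart from the 2 Id2 KO Zbtb46-GFP+ arrays, WT CDP replicate 2 was the highest array, and the 4 arrays of the other Zbtb46-GFP+ groups lay within the range of the other CDP arrays.

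Jchain was higher in Id2 KO than in WT Zbtb46-GFP+ cells by 1.76 ± 0.27 (adjusted p = 0.00634), and than in Batf3 KO Zbtb46-GFP+ cells by 1.89 ± 0.27 (0.0102). No linear fold is given, since the mean Jchain signal lay at the 12.6th percentile of all genes and the files give no detection call to show that the lower groups were above background. Within the sets of arrays these differences were 1.94 and 1.58 against WT and 2.04 and 1.73 against Batf3 KO. The call against WT was lost without Id2 KO replicate 2 (adjusted p = 0.0848), and that against Batf3 KO without any 1 of the 4 arrays compared (0.15 and 0.0513 for Id2 KO replicates 2 and 3, 0.0638 and 0.0804 for Batf3 KO replicates 2 and 3). With all 15 arrays and a term for the 3, neither was called (0.0952 and 0.151). The step from Id2 KO CDPs was 1.83 ± 0.27 (adjusted p = 0.00186) and was called in each of the 12 fits that left out 1 array.

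The Jchain step was 0 in Batf3 KO and -0.58 in WT, where, among the alternatives run, it was called only without WT CDP replicate 1 (-1.10, adjusted p = 0.00674), which leaves the high array alone in its group. Its Id2 KO step exceeded the WT step by 2.42 ± 0.38 (adjusted p = 0.0226). This call was lost without either array of Id2 KO Zbtb46-GFP+ cells (0.126 and 0.0801 without replicates 2 and 3), WT Zbtb46-GFP+ cells (0.0508 and 0.0695) or Id2 KO CDPs (0.0799 and 0.081 without replicates 1 and 2), and with each array centred on its 75th percentile (0.0703). In CDPs the differences from WT were -0.66 in Id2 KO and -0.71 in Batf3 KO, neither called (adjusted p = 1 each).

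Dntt, terminal deoxynucleotidyl transferase, adds untemplated bases at the joints of rearranged receptor genes and marks early lymphoid progenitors. Its signal was 4.75 and 4.83 in Id2 KO, 4.62 and 5.02 in Batf3 KO and 4.86 and 5.25 in WT Zbtb46-GFP+ cells (log2). In CDPs it was 6.48 and 6.79 in Id2 KO, 7.55 and 6.37 in Batf3 KO, and 7.32 and 6.65 in WT. All 6 Zbtb46-GFP+ arrays lay below all 6 CDP arrays, and within a stage the genotypes overlapped or lay next to each other.

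Dntt fell in Zbtb46-GFP+ cells relative to CDPs in each genotype, by 1.85 ± 0.34 in Id2 KO (adjusted p = 0.00789), 2.14 ± 0.34 in Batf3 KO (0.00297) and 1.93 ± 0.34 in WT (0.00382) on the log2 scale. The Zbtb46-GFP+ signals lay in the dim range of these arrays and were not shown to be above background, so that neither the sizes of these steps nor their likeness between genotypes is exact. The Id2 KO call was lost without Id2 KO Zbtb46-GFP+ replicate 2 (adjusted p = 0.0699) or 3 (0.0507), while the Batf3 KO and WT calls held without any 1 of the 12 arrays. The Id2 KO step differed from the WT step by 0.08 (95% interval -0.98 to 1.14) and the Batf3 KO step by -0.21 (-1.27 to 0.85). Id2 KO and WT differed by -0.27 in Zbtb46-GFP+ cells (-1.02 to 0.48) and by -0.35 in CDPs (-1.10 to 0.40).

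Vpreb1 is the variable-like part of the surrogate light chain, which pairs with the heavy chain in the pre-B cell receptor, and is transcribed early in lymphoid progenitors. It lies on chromosome 16 next to Igll1, which encodes the other part of the surrogate light chain. Its window, chr16:16869206-16869505, minus strand, is shown because the 1 E-box in it is the CAGGTG form.
Vpreb1: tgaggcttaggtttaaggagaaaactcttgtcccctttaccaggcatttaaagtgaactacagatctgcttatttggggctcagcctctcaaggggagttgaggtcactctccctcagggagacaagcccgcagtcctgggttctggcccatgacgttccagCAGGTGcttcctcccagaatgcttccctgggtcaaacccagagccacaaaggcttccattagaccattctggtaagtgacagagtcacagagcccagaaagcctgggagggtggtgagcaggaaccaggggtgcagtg
Vpreb1 signal was 7.43 and 7.53 in Id2 KO, 7.48 and 6.91 in Batf3 KO and 6.28 and 6.38 in WT Zbtb46-GFP+ cells (log2). In CDPs it was 9.03 and 8.01 in Id2 KO, 8.72 and 8.60 in Batf3 KO, and 8.68 and 8.28 in WT. Every CDP array lay above every Zbtb46-GFP+ array, and among Zbtb46-GFP+ cells the WT arrays lay below those of both knockouts.

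Vpreb1 fell in Zbtb46-GFP+ cells relative to CDPs by 1.47 ± 0.29 in Batf3 KO (adjusted p = 0.0104) and by 2.15 ± 0.29 in WT (0.000696). The WT call held without any 1 array, and the Batf3 KO call was lost without Zbtb46-GFP+ replicate 3 (0.103) or CDP replicate 1 (0.0841) or 2 (0.0529). In Id2 KO the step was -1.04 ± 0.29 and not called (adjusted p = 0.0578), with -1.60 and -0.48 within the sets. It was called with each array centred on its 75th percentile (0.0235), after quantile normalization (0.0234), with dim genes left out (0.043), with a block for the sets (0.00521) and without Id2 KO CDP replicate 2 (0.00623). Between Id2 KO and WT Zbtb46-GFP+ cells the difference of 1.15 ± 0.29 was not called (adjusted p = 0.0891) and lay at 1.05 and 1.24 within the sets. It was called with the 75th percentile centring (0.0461), quantile normalization (0.0212), the block for the sets (0.00681) and without either Id2 KO CDP array (0.0152 each). The difference between the Id2 KO and WT steps was 1.11 ± 0.41 and not called (0.718).

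Igll1, Vpreb2 and Ighm were read beside Vpreb1 as genes of the pre-B cell receptor. Igll1 averaged 7.70 ± 0.14 in Id2 KO, 7.76 ± 0.63 in Batf3 KO and 7.13 ± 0.13 in WT Zbtb46-GFP+ cells, against 7.47 ± 0.18, 7.63 ± 0.18 and 7.32 ± 0.30 in the CDPs (log2 signal, SD, n = 2 each), and was called in no comparison. Its differences from WT Zbtb46-GFP+ cells, 0.57 ± 0.26 in Id2 KO and 0.63 ± 0.26 in Batf3 KO (SE), had the sign of those of Vpreb1. The Igll1 step in WT was -0.18 ± 0.26. Vpreb2, a near copy of Vpreb1, had a WT step of 0.19 (95% interval -0.38 to 0.75). Whether the Vpreb1 probe set also reads Vpreb2 RNA was not tested. Ighm, the heavy chain of IgM, averaged 7.03 ± 0.23 in Id2 KO and 7.11 ± 0.38 in WT Zbtb46-GFP+ cells.

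**Figure D2:**
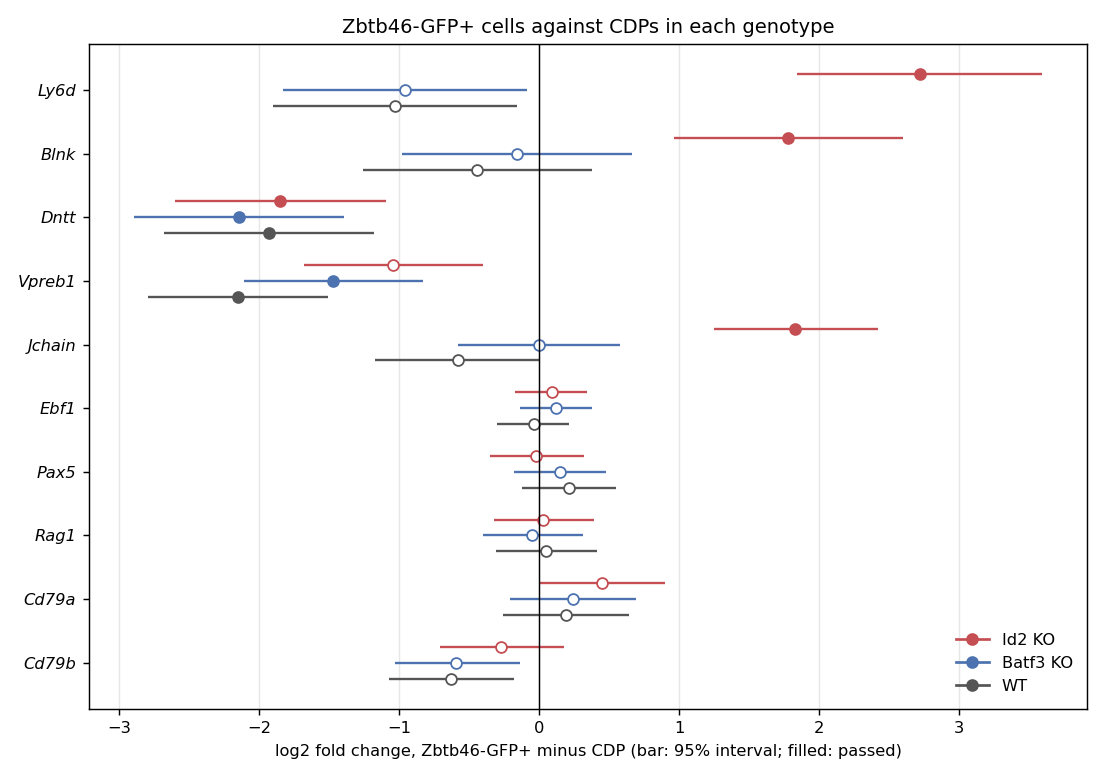
Log2 fold change of the 10 genes (rows) in Zbtb46-GFP+ cells minus CDPs, by genotype (red Id2 KO, blue Batf3 KO, grey WT). Points are fold changes, filled where called, and lines are 95% intervals. The Dntt points lie together between -2.14 and -1.85 in all 3 genotypes, while for Ly6d the Id2 KO point at 2.72 lies away from -0.96 in Batf3 KO and -1.03 in WT.

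The lineage factors Ebf1 and Pax5 did not pass the test in any comparison. Ebf1 ranged from 4.95 to 5.28 over the 12 arrays, and its 8 stage and genotype differences lay between -0.21 and 0.12, with 95% intervals inside -0.47 to 0.38. Pax5 ranged from 5.93 to 6.52, with differences between -0.04 and 0.29 and intervals inside -0.38 to 0.63. In Id2 KO against WT Zbtb46-GFP+ cells the differences were -0.07 for Ebf1 and 0.06 for Pax5. Groups of both genes overlapped in most neighbouring pairs. Ebf1 signal was among the lowest 25% of genes.

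Rag1, which with Rag2 forms the recombinase that cuts receptor genes, ranged from 5.35 to 5.77, with differences between -0.05 and 0.10 and intervals inside -0.40 to 0.46. Its window, chr2:101649483-101649782, minus strand, is shown as that of a gene with no called difference.
Rag1: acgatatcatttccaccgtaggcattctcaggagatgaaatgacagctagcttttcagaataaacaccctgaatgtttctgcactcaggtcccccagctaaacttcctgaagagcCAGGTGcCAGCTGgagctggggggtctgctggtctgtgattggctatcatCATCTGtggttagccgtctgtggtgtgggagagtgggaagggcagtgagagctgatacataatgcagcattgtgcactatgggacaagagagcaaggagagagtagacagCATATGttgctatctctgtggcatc
Of its 4 E-boxes, 1 was CAGGTG and 1 was CAGCTG, the other E-protein form searched, which 16.3% of all windows held and which was in no other window of these genes. Rag2, its neighbour on chromosome 2, averaged 4.63 ± 0.03 in Id2 KO, 4.56 ± 0.04 in Batf3 KO and 4.59 ± 0.25 in WT Zbtb46-GFP+ cells (log2 signal, SD, n = 2 each).

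Cd79a and Cd79b, the paired signalling chains of the B cell receptor, also passed in no comparison. Cd79a ranged from 4.57 to 5.54, and its differences lay between -0.04 and 0.45, with intervals inside -0.49 to 0.90. Cd79b ranged from 7.82 to 8.92, and its steps were -0.27 in Id2 KO, -0.59 in Batf3 KO (adjusted p = 0.13) and -0.63 in WT (0.0765). The WT step of Cd79b was called with a block for the sets of arrays (0.0314) and without either Id2 KO CDP array (0.0407 each).

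**Figure D3:**
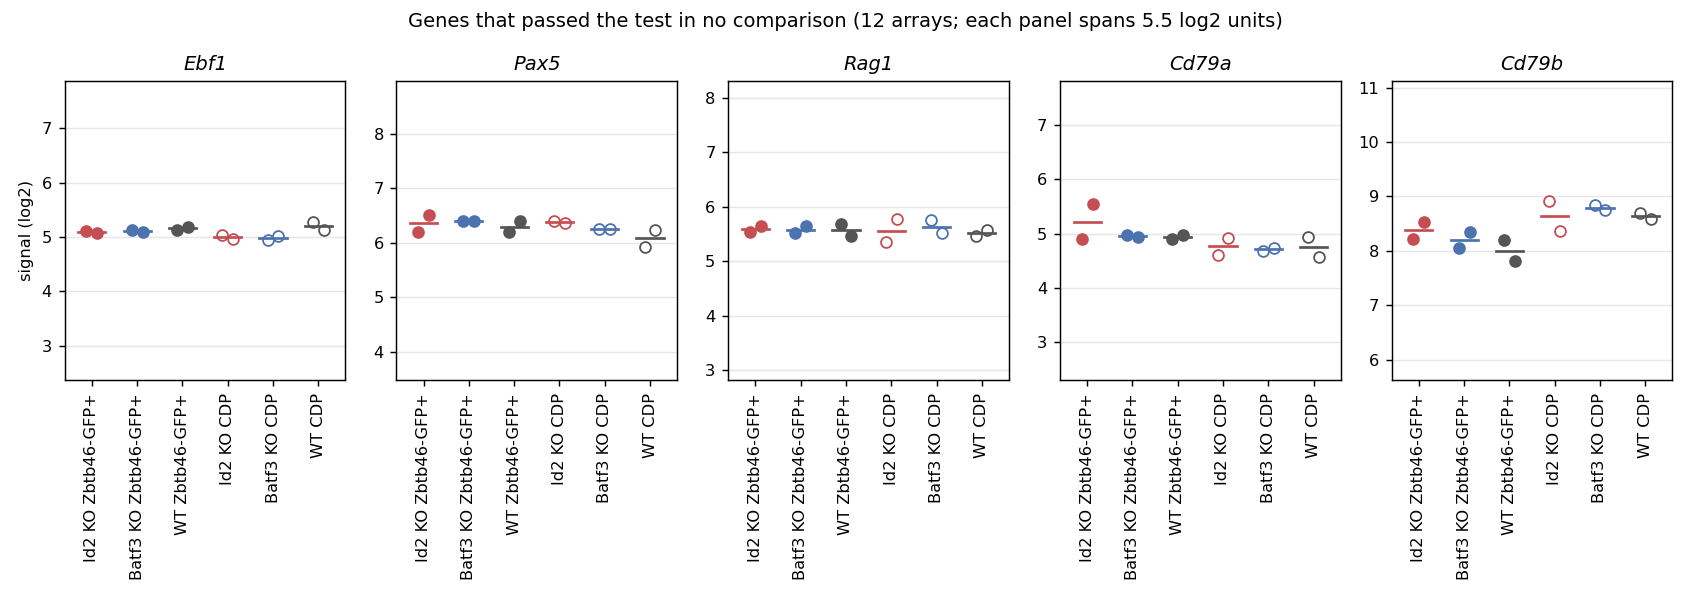
Log2 signal (y axis) of the 5 genes called in no comparison, by group (x axis), with points, bars and colours as in the plot of the 5 called genes and the same height of scale in every panel. Over the 12 arrays Ebf1 spans 0.33 and Cd79b 1.09 on the log2 scale.

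RefSeq windows were in the table for 8 of the 10 genes, and Ly6d and Cd79b had none there. Besides the windows shown, Ebf1 had 2 windows with 0 and 2 E-boxes, Pax5 had 1 E-box and Cd79a had 2. The CAGGTG form was in the windows of Blnk, Vpreb1, Jchain, Rag1 and Cd79a, and so of genes that were called and of genes that were not. The palindrome bound by EBF-type factors, searched as TCCC, any 2 bases, then GGGA, was in none of these windows and in 0.904% of all windows.

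**Figure D4:**
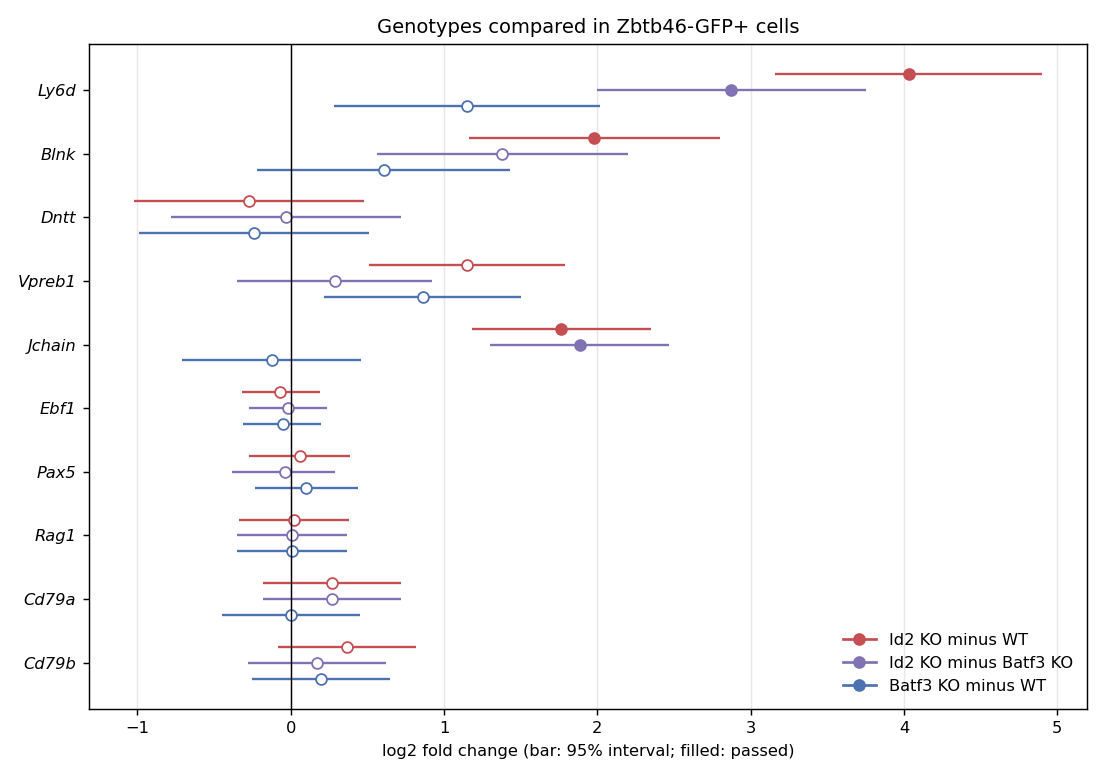
Log2 fold change of the 10 genes (rows) between genotypes in Zbtb46-GFP+ cells (red Id2 KO minus WT, purple Id2 KO minus Batf3 KO, blue Batf3 KO minus WT). Points are fold changes, filled where called, and lines are 95% intervals. Ly6d lies at 4.03, 2.87 and 1.15 in the 3 comparisons, and Jchain at 1.76, 1.89 and -0.12.

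Set against all genes, the counts for the list were as follows. In Zbtb46-GFP+ cells, 3 of 10 were higher in Id2 KO than in WT and 0 lower, where 1.09% of all genes were called higher and 0.717% lower, and the median difference was 0.32 for the list and -0.02 for all genes. Against Batf3 KO, 2 of 10 were higher in Id2 KO and 0 lower (0.261% and 0.331% of all genes), with medians of 0.22 and -0.01. Between Batf3 KO and WT, 0 of 10 were called in limma's test, where 0.336% of all genes were called in either direction. An unadjusted p under 0.05 was found for 2 of the 10, and for 887 of all 19938 genes. The test of the difference between steps called 2 of 10 higher and 0 lower for Id2 KO against WT (0.115% and 0.206% of all genes). For Batf3 KO against WT it called 0 of 10 (0.0953% of all genes). There 0 of the 10 had an unadjusted p under 0.05, against 383 of all 19938 genes.

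Along the step from CDPs, 3 of the 10 genes were higher and 1 lower in Id2 KO Zbtb46-GFP+ cells, where 3.84% and 2.98% of all genes were called. In Batf3 KO 0 were higher and 2 lower (3.87% and 3.32% of all genes), and in WT 0 were higher and 2 lower (4.71% and 6.38%). The list's median step was 0.06 in Id2 KO, -0.10 in Batf3 KO and -0.51 in WT, against 0.01, 0.01 and 0.03 over all genes. In CDPs 0 of 10 were called between Id2 KO and WT and 0 between Batf3 KO and WT (0.0251% and 0.0502% of all genes). An unadjusted p under 0.05 in limma's test was found for 1 and 2 of the 10. Of all 19938 genes, 126 and 257 had such a p. The comparisons against WT Zbtb46-GFP+ cells share those arrays, and the steps share arrays with the genotype comparisons.

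Other B-lineage regulators were examined as a list of 16 genes, all measured. In Id2 KO against WT Zbtb46-GFP+ cells 4 were higher and 0 lower, with a list median of 0.53. They were Runx1, a factor needed early in blood and lymphoid development (1.22 ± 0.22), Myb, a progenitor factor (1.21 ± 0.15), Sox4, a factor of early B cell progenitors (0.89 ± 0.19), and Ikzf1, which encodes Ikaros (0.60 ± 0.13). The Id2 KO step held 5 higher genes, led by Irf4 (3.21 ± 0.33), Spib (3.08 ± 0.51) and Bcl11a (1.03 ± 0.26), and 2 lower, Sox4 (-1.39 ± 0.19) and Myb (-0.95 ± 0.15). Of these, Spib and Bcl11a are also factors of pDCs. The Batf3 KO step held 1 higher, Irf4 (3.39 ± 0.33), and 3 lower, Sox4 (-1.81 ± 0.19), Myb (-1.57 ± 0.15) and Tcf3 (-0.74 ± 0.17). The WT step held 1 higher, Irf4 (2.48 ± 0.33), and 5 lower, among them Sox4 (-2.31 ± 0.19), Myb (-2.28 ± 0.15) and Runx1 (-1.15 ± 0.22). For Myb the difference between the Id2 KO and WT steps was called (1.33 ± 0.21). Between Batf3 KO and WT Zbtb46-GFP+ cells 0 of the 16 were called in limma's test, and the list median was 0.36. Between Id2 KO and Batf3 KO Zbtb46-GFP+ cells 0 were called, and the median was 0.18. An unadjusted p under 0.05 was found for 4 and 6 of the 16, and for 887 and 1082 of all 19938 genes.

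Of 6 E and Id proteins, the E-protein genes Tcf4 (1.54 ± 0.26) and Tcf12 (0.71 ± 0.15) were higher in Id2 KO than in WT Zbtb46-GFP+ cells, and the targeted gene Id2 was lower (-3.13 ± 0.32). Tcf4 averaged 11.62 ± 0.07 in Id2 KO, 10.66 ± 0.37 in Batf3 KO and 10.08 ± 0.58 in WT Zbtb46-GFP+ cells (log2 signal, SD, n = 2 each). Tcf3, which encodes the E2A proteins, averaged 9.14 ± 0.08, 8.86 ± 0.17 and 8.89 ± 0.01 in the same groups, and its step was lower in Batf3 KO (-0.74 ± 0.17) and WT (-0.84 ± 0.17).

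In the list of pre-B and B cell receptor and signalling genes, 17 of 20 were measured. Between Id2 KO and WT Zbtb46-GFP+ cells 0 were called in limma's test, with 8 at an unadjusted p under 0.05 and a median of 0.30. Of all 19938 genes, 1852 had an unadjusted p under 0.05 in that comparison, which also applies to the later lists. The step called 5 higher and 1 lower in Id2 KO, 3 and 1 in Batf3 KO and 3 and 1 in WT. Prkcb, a protein kinase C, was higher in all 3 steps (1.87, 1.89 and 1.5 in Id2 KO, Batf3 KO and WT), as was the inhibitory receptor Cd22 (1.03, 2.14 and 1.5), while the adaptor Dok3 was lower in all 3 (-1.03, -0.78 and -1.47). Cd22 was lower in Id2 KO than in Batf3 KO Zbtb46-GFP+ cells (-1.88 ± 0.21).

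Of 12 genes of V(D)J recombination and end joining, 11 were measured and 0 were called between Id2 KO and WT Zbtb46-GFP+ cells in limma's test, with 2 at an unadjusted p under 0.05. The polymerase genes of the Dntt family differed among themselves in the WT step, where Polm was higher (0.89 ± 0.19) and Poll lower (-0.78 ± 0.22). Hmgb1, a cofactor of the recombinase, was also lower (-0.74 ± 0.15). No gene of this list was called in the Id2 KO step, where 3 had an unadjusted p under 0.05, against 3403 of all 19938 genes.

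Surface genes of lymphoid and early progenitors, 10 of 12 measured, gave 2 higher and 1 lower in Id2 KO against WT Zbtb46-GFP+ cells. Cd93, a receptor of early progenitors and immature B cells, was higher by 2.17 ± 0.19, Cd27, a receptor of the TNF receptor family, by 1.13 ± 0.21, and the stem cell factor receptor Kit was lower (-0.88 ± 0.15). Kit protein was part of the sort. In all 3 genotypes Cd34, Cd93 and Cd27 were lower in Zbtb46-GFP+ cells than in CDPs. The Cd93 step was -1.70 in Id2 KO, -2.81 in Batf3 KO and -4.03 in WT. The difference between the Id2 KO and WT steps was called (2.33 ± 0.27), and that between the Batf3 KO and WT steps was not. Cd93 was also called higher in Batf3 KO than in WT Zbtb46-GFP+ cells (1.19 ± 0.19). Il7r, the interleukin 7 receptor of lymphoid progenitors, was at 6.10 and 7.10 in Id2 KO, 5.51 and 6.39 in Batf3 KO and 5.34 and 5.79 in WT Zbtb46-GFP+ cells (lowest and highest array, log2), and its difference of 1.04 between Id2 KO and WT was not called (adjusted p = 0.254).

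Plasma cell genes, the setting in which Jchain is best known, showed 0 of 8 called between Id2 KO and WT Zbtb46-GFP+ cells in limma's test, with 0 at an unadjusted p under 0.05 and a median of -0.02. Ell2 is an elongation factor of secretory plasma cells. Its change from CDPs was called higher in Id2 KO (1.01 ± 0.19) and, at a similar size, in WT (0.95 ± 0.19). Sdc1, also on this list, was called lower than in CDPs for WT (-1.07 ± 0.2) and for Batf3 KO (-1.59 ± 0.2), and was not called for Id2 KO.

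Some markers of other cell types were, like Ly6d, Blnk and Jchain, higher in Id2 KO than in WT Zbtb46-GFP+ cells. Of 13 measured pDC markers, 6 were higher and 0 lower in Id2 KO than in WT Zbtb46-GFP+ cells, led by the sialic acid receptor Siglech (3.06 ± 0.46), Tex2 (1.83 ± 0.24), Tcf4 and Bst2 (1.5 ± 0.24), with a list median of 1.26. Their summed intensity was 24242 to 25986 in Id2 KO, 14632 to 19209 in Batf3 KO and 11318 to 14519 in WT Zbtb46-GFP+ arrays. Of 10 neutrophil and granule markers, 4 were higher, Elane (2.32 ± 0.33), Ms4a3 (1.95 ± 0.35), Prtn3 (1.90 ± 0.22) and Ctsg (1.37 ± 0.24), and the sums were 38229 to 39509, 21878 to 28242 and 15782 to 15973 in the same groups. Of 9 T and NK markers, Nkg7 (1.42 ± 0.21) and Thy1 (0.76 ± 0.13) were higher, with sums of 944 to 1016, 825 to 909 and 737 to 794. The median of that list was -0.06, against -0.02 over all genes. In Id2 KO CDPs the sums were 12166 to 13471 for pDC, 26758 to 37489 for granule and 1048 to 1203 for T and NK markers.

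Mature B cell markers, 8 of 10 measured, had 0 called between Id2 KO and WT Zbtb46-GFP+ cells in limma's test and 2 at an unadjusted p under 0.05. Their summed intensity was 2374 to 2540 in Id2 KO, 3823 to 3862 in Batf3 KO and 2342 to 2415 in WT Zbtb46-GFP+ arrays, so that the sums of Id2 KO and WT overlapped while those of Batf3 KO lay higher. Of 3 measured erythroid markers none was called in that comparison and 0 had an unadjusted p under 0.05, with sums of 259 to 277, 227 to 235 and 239 to 255. Classical DC markers had 0 of 8 higher and 4 lower in Id2 KO than in WT, Xcr1, Clec9a, Batf3 and Zbtb46, and CDP markers 2 higher, Csf1r and Cx3cr1, and 1 lower, Kit. No marker was at 0 on the 12 arrays, but RMA intensities stay above 0, so this does not show that a marker was above background. The part of pDC and granule marker genes in the values of Ly6d, Blnk and Jchain was not tested.

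Among genes with an SD of at least 0.5 over the 12 arrays (1192 genes), those whose log2 signal followed each called gene most closely were picked by Pearson's r, as a description over arrays that share groups. For Ly6d they were Bst2, Siglech and P2ry13 (r = 0.967 each), and for Blnk Tcf4 (0.95), Siglech (0.933) and Lair1 (0.931). For Jchain they were Grifin (0.87), Cdh1 (0.853) and Cd6 (0.821). Each was called higher in Id2 KO than in WT Zbtb46-GFP+ cells, which the choice by likeness to Jchain made likely beforehand. Cdh1, which encodes E-cadherin, averaged 9.39 ± 0.31 in Id2 KO, 6.70 ± 0.19 in Batf3 KO and 6.78 ± 0.15 in WT Zbtb46-GFP+ cells (log2 signal, SD, n = 2 each). For Dntt they were Erg (0.968), Bpifc (0.965) and Gm4759 (0.965), and for Vpreb1 Ada (0.985), Rfc3 (0.984) and Tmem205 (0.976). Erg, a factor of stem and early progenitor cells, averaged 6.99 ± 0.02 in Id2 KO, 6.81 ± 0.19 in Batf3 KO and 6.92 ± 0 in WT Zbtb46-GFP+ cells, against 8.75 ± 0.10, 8.64 ± 0.40 and 8.83 ± 0.45 in the CDPs.

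Between the 10 genes, Ly6d and Blnk had the highest correlation over the 12 arrays (r = 0.93), followed by Vpreb1 and Cd79b (0.88) and by Dntt and Vpreb1 (0.79). Jchain followed Blnk and Ly6d less closely (0.70 and 0.67). The neighbours Blnk and Dntt had r = -0.25.

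The 3 replicate 1 arrays of Zbtb46-GFP+ cells gave 1 value per genotype on their own scale, with no test. Ly6d was at 6.47 in Id2 KO, 6.03 in Batf3 KO and 6.03 in WT, and Blnk at 4.96, 4.27 and 4.27 (log2). Vpreb1 differed most, at 7.93 in Id2 KO, 4.65 in Batf3 KO and 5.34 in WT, and Jchain was at 4.53, 4.35 and 4.2. Dntt, Ebf1, Pax5 and Rag1 had the same value to the deposited digits on all 3 arrays, and 7 of the 10 genes were identical between Batf3 KO and WT. Id2 KO was the highest of the 3 for Ly6d, Blnk, Vpreb1, Jchain and Cd79a, by 0.44, 0.69, 2.59, 0.34 and 0.32 over WT. For Ly6d, Blnk and Jchain these sizes were far below those on the other arrays.

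**Figure D5:**
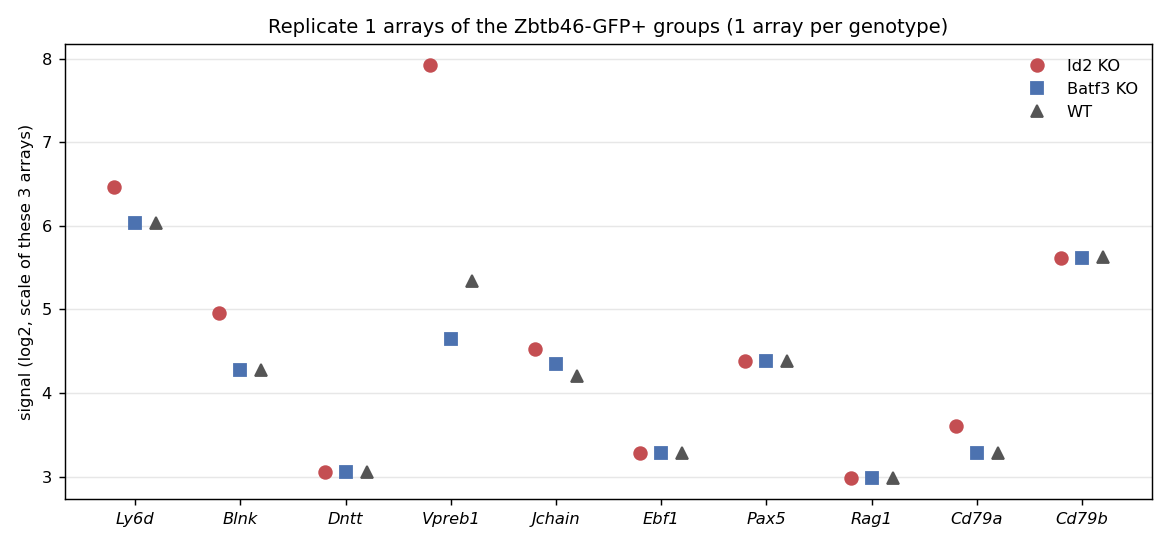
Log2 signal (y axis, scale of these arrays) of the 10 genes (x axis) on the replicate 1 arrays of Zbtb46-GFP+ cells, 1 array per genotype (red circle Id2 KO, blue square Batf3 KO, grey triangle WT). Vpreb1 is the widest apart, at 7.93 in Id2 KO against 4.65 in Batf3 KO, and Dntt, Ebf1, Pax5 and Rag1 coincide in all 3.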

How the data were processed

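Cells were sorted from bone marrow and their RNA labelled with an Affymetrix WT Pico kit, per the labels' protocols. Deposited values are linear intensities per probe set, which the authors made with RMA in Affymetrix Expression Console, per the submitters' processing notes; versions and the array's genome build are not given in the sources used here. Log2 was taken here. Of 28853 probe sets, 21789 named 1 gene, and the brightest per gene gave 19938 genes. limma 3.58.1 (R 4.3.3) fitted 6 group means on 12 arrays (6 residual degrees of freedom, empirical Bayes, two-sided) in 10 comparisons, and was tested on simulated data. The number of arrays limits the precision.

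The genes and lists were chosen with earlier results of these data known. All 10 genes are named. From each list up to 4 called genes are named by largest fold change, and for each called gene the 3 genes with the highest correlation. Others (Igll1, Vpreb2, Ighm, Rag2, Il7r, Tcf3, Xist and Myb in the Id2 KO step) were chosen after their values were seen. Same-numbered arrays had residual correlations of 0.53 to 0.68 in CDPs, but of 0.48, -0.42 and -0.55 in Zbtb46-GFP+ cells, so numbers were not taken as pairs. Alternatives were other scalings, a filter on dim genes (lowest 25%), the mean of a gene's probe sets, other sets of arrays, blocks and leaving out each array.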

Additional observations from a re-analysis of the deposited data

Results flagged for a closer look

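For 2 of the 10 genes the change from CDPs to Zbtb46-GFP+ cells differed between Id2 KO and WT when the difference itself was tested. For Ly6d the Id2 KO step exceeded the WT step by 3.74 on the log2 scale (adjusted p = 0.0197, limma), with 2.72 in Id2 KO and -1.03 in WT. For Jchain it did so by 2.42 (adjusted p = 0.0226), with 1.83 in Id2 KO and -0.58 in WT, where WT CDP replicate 2 (5.73) lay above replicate 1 (4.70). Both calls were lost when either Id2 KO Zbtb46-GFP+ array was left out, with values of 3.60 and 3.89 for Ly6d and of 2.25 and 2.58 for Jchain, and when the 3 replicate 1 arrays were added with a term (2.55 and 1.94, adjusted p = 1 and 0.405). The corresponding Batf3 KO differences were 0.07 and 0.58 and were not called.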

How the results depend on the processing

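No called result on the 10 genes changed sign under any alternative. The counts of genes called in the Id2 KO step, the Batf3 KO step, the WT step, Id2 KO minus WT, Id2 KO minus Batf3 KO and the Id2 KO difference between steps were 4, 2, 2, 3, 2 and 2. They were 0 in all 6 with all 15 arrays, and also with a replicate block on all 15. With a term for the 3 replicate 1 arrays the last 2 were 0. The calls of Ly6d in the Id2 KO step and of Jchain in Id2 KO minus WT were also lost with that term. The 75th percentile centring left 1 in the Id2 KO difference between steps, and leaving out dim genes, which removes Jchain, left 1 there and 1 in Id2 KO minus Batf3 KO. The block for the 2 sets of arrays, the crossed pairing, kept all 15 calls and added 9. It gave 4 in the WT step, 1 in Batf3 KO minus WT in Zbtb46-GFP+ cells and 1 in CDPs. It also added Vpreb1 in the Id2 KO step and in Id2 KO minus WT, and Ly6d in the Batf3 KO step. Blnk was added in Id2 KO minus Batf3 KO and in the Id2 KO difference between steps. Smaller changes of these counts under the other settings are not all listed here. Leaving out each array in turn, which can leave a lone array assumed to vary like the other groups, gave 2 to 4, 1 to 2, 2 to 3, 1 to 4, 0 to 2 and 0 to 2. Apart from fits with fewer arrays or genes, the cause of a change was not tested. The replicate block on the 12 arrays kept all 15 calls and added Vpreb1 in Id2 KO minus WT Zbtb46-GFP+ cells (1.15, adjusted p = 0.0271).

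Over all genes, Id2 KO minus WT in Zbtb46-GFP+ cells called 361 as reported, 1212 with the block for the sets, 626 after quantile normalization, 555 with the replicate block on the 12 arrays, 207 with the term and 120 to 357 without 1 array. The WT step called 2212, 4829 with the block for the sets and 1183 to 2331 without 1 array. The 75th percentile centring moved the median of all genes in the WT step to 0.14, against 0.03, and the split of calls to 1197 higher and 996 lower, against 940 and 1272. The block for the sets called 3234 in the Id2 KO step, 3487 in the Batf3 KO step, 506 in Id2 KO minus Batf3 KO, 250 in Batf3 KO minus WT, 26 in that difference in CDPs, and 373 and 42 in the differences between steps for Id2 KO and Batf3 KO, against 1359, 1432, 118, 67, 10, 64 and 19. Quantile normalization gave 2239, 2217, 230 and 112 in the first 4 of these and 158 in the Id2 KO difference between steps, where the replicate block on the 12 arrays gave 120 and the term 20. The term gave 29 in Batf3 KO minus WT, 5 in CDPs, 8 in the Batf3 KO difference between steps and 0 in Id2 KO minus WT in CDPs, against 5. With the replicate block on all 15 arrays, 0 to 25 genes were called. Without 1 array the counts were 488 to 1506 in the Id2 KO step, 642 to 1548 in the Batf3 KO step, 36 to 152 in Id2 KO minus Batf3 KO, 33 to 96 in Batf3 KO minus WT, and 21 to 91 and 7 to 41 in the differences between steps for Id2 KO and Batf3 KO.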
